A study of Mus musculus with 18 samples.

Results

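Transcription was compared between 2 lines of mouse embryonic stem cells (ESCs), with an HDAC1–Y48E or a wild-type HDAC1 transgene. Both still had their endogenous HDAC1 and HDAC2. The comparison took in the 3 libraries titled HDAC1-Y48E, untreated and the 3 titled HDAC1-WT, untreated, 6 of the 18 libraries in the study, and all genes counted in them. Every line was made from E14TG2a ESCs, a feeder-independent line, in which both copies of Hdac1 and Hdac2 are flanked by lox sites, and stably expressed HDAC1 with a Flag tag from an integrated piggyBac transgene. The 2 groups had been grown for 5 days without 4-hydroxytamoxifen (OHT), the agent that triggers deletion of Hdac1 and Hdac2, so both still had the endogenous genes and differed by label only in the transgene, wild type (WT) or Y48E. In addition, the libraries of the OHT-treated WT and Y48E lines (1 µM OHT, which the methods give as a shorter pulse followed by growth without the drug) and of an untreated line with HDAC1–E63R were used where stated, again with 3 libraries per group. Each transgene was represented by a single line, and whether a line was 1 clone or a pool is not given in the sources used here, so the amino acid exchange and any other difference between the lines cannot be told apart. The study describes its RNA-seq replicates as biological. The labels do not say whether the 3 libraries of a group came from separate cultures, and if they did not, p-values measure only the spread between these samples.

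HDAC1 and HDAC2 are closely related deacetylases that remove acetyl groups from histone tails and have no sequence preference of their own. They are brought to genes by larger assemblies, among them SIN3, NuRD, CoREST, MiDAC, MIER and RERE, whose scaffold proteins dock on the surface of the enzyme. In ESCs these assemblies restrain genes of other lineages and of earlier and later embryonic stages, and they also act at active genes of the pluripotency network. The Y48E exchange changes a surface tyrosine to glutamate, and was made to disturb docking of such partners.

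The WT libraries held 10206600 to 11402694 counts on genes and the Y48E libraries 9117826 to 9667376. Entries without a gene made up 59.8% to 60.2% of a library and were left out. Values are given in CPM, counts scaled to a common library total of 1e+06 with TMM factors, in the order of replicates 1, 2 and 3, and 3 counts, the upper limit that a count of 0 allows, amounted to 0.263 to 0.329 CPM. Intervals and floors of this kind cover counting error only. The first principal component of the 6 libraries, with 49.6% of the variance, placed the WT libraries at -55.8 to -52 and the Y48E libraries at 53 to 54.9. Replicates differed by 3.38 to 7.42 in chi-square per degree of freedom across the study, except that replicate 3 of untreated E63R stood apart from the other two at 60.4 and 67.1. It took no part in the Y48E and WT means but entered the shared estimate of the spread, and without it the DEG counts below were 631 and 713. All 8 ESC markers were expressed in both lines, at a summed level of 6314 to 6631 CPM in the WT line and 5219 to 5402 CPM in the Y48E line, and none of them was called. Of 14 fibroblast markers 8 passed the filter on low counts and 1 was lower, Lum was at 0 in all 6 libraries, and the summed level was 134.8 to 146 CPM in the WT line and 95.6 to 100.7 CPM in the Y48E line.

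The Y48E line differed widely from the WT line before any loss of the endogenous enzymes. Of 18791 genes tested, 493 were higher (2.62%) and 554 were lower (2.95%) in the Y48E line, 1047 differentially expressed genes (DEGs, 5.57%). In edgeR's quasi-likelihood test these had an adjusted p below 0.01 and differed more than 2-fold, that is by more than 1 on the log2 scale. A further set moved less than 2-fold, since 2285 genes (12.2%) passed the p limit alone, 1207 of them higher. The median size of the log2 fold change was 0.36 over all tested genes and 1.60 over the DEGs. The groups did not overlap in 1040 of the 1047 DEGs, against 40.2% of all genes tested. Protein-coding genes made up 389 of the higher and 492 of the lower genes, and most DEGs were of low or middling abundance, with 17 of the higher and 21 of the lower genes at a mean of 100 CPM or more.

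**Figure D1:**
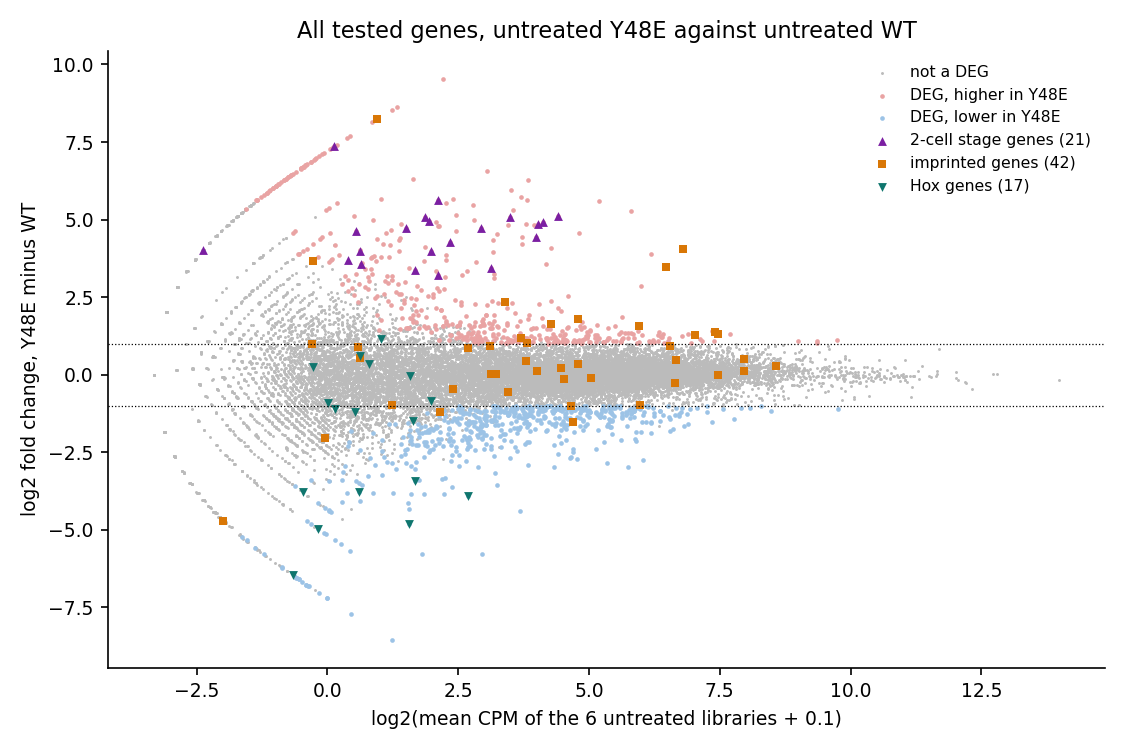
Log2 fold change (untreated Y48E minus untreated WT) of each of the 18791 tested genes against the log2 of its mean CPM (plus 0.1) over the 6 libraries, with DEGs in colour and 3 gene lists as larger marks; dotted lines mark a log2 fold change of 1 in each direction. The 2-cell stage genes sit together at 3.21 to 7.36, the 42 imprinted genes spread to both sides with more above the upper line, and the Hox genes called lie below the lower line.

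Hdac1 itself was counted less in the Y48E line. Its level was 204, 201 and 210.4 CPM in the WT line and 97.9, 104 and 102 CPM in the Y48E line, with no overlap between the groups (log2 fold change -1.02, SE 0.09, adjusted p = 5.60e-08). Reads of the transgene and of the endogenous gene cannot be told apart in these counts, and 24.9% of the 100-base words of Hdac1 exons also occur in the copy Gm10093. The change was close to the 2-fold limit, and it came just inside that limit without WT replicate 3 or Y48E replicate 1 (log2 fold change -1.0 to -0.99) and, at -0.99, without the genes of chromosomes 6 and 8. The untreated E63R line lay at 110.2, 94.9 and 110.1 CPM, near the Y48E line. Hdac2, the partner enzyme, was at 208, 169 and 208 CPM in the WT line and 149, 154 and 151 CPM in the Y48E line and was not called (log2 fold change -0.36, SE 0.11, adjusted p = 0.0241). Of the other class I deacetylases, Hdac3, the enzyme of the NCoR and SMRT complexes, had a log2 fold change of 0.36 (adjusted p = 0.067) and Hdac8 one of -1.12 (adjusted p = 0.0377).

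No gene of the scaffolds and subunits that carry HDAC1 reached the limits of a DEG. None of the 15 NuRD, 16 SIN3 and 17 CoREST, MiDAC, MIER and RERE genes tested was a DEG, and none of 11 histone acetyltransferase genes was. Over all tested genes the share of DEGs was 5.57%, so lists this short may hold none. Smaller differences passed the p limit. In NuRD, Mta3, a scaffold subunit, was at 213, 237 and 203 CPM in the WT line and 129.9, 127 and 125 CPM in the Y48E line (log2 fold change -0.77, adjusted p = 5.39e-05), and Gatad2a, which links the scaffold to the CHD4 remodeller, was at 162, 170.1 and 155 CPM in the WT line and 254, 279 and 263 CPM in the Y48E line (0.71, adjusted p = 2.37e-05). In SIN3, Ing2, a reader of methylated histone H3, stood at 17.3, 19.1 and 22.3 CPM in the WT line and 35.3, 41.9 and 36 CPM in the Y48E line (0.95, adjusted p = 9.40e-05), and Fam60a at 124, 139 and 159 CPM in the WT line and 249, 260.3 and 273 CPM in the Y48E line (0.89, adjusted p = 1.45e-06). Gatad2a, Ing2, Ing1 (0.55) and Sin3b (0.67) lie on chromosome 8, whose genes were shifted upwards as a group, as described further on. The symbol Fam60a was not matched to either of the shifted chromosomes. Since some symbols had no position in the annotation used, the place of Fam60a was not settled here. The scaffolds Sin3a (0.40), Mta1 (0.05), Mta2 (-0.01), Rcor1 (-0.57), Rcor2 (-0.01), Mier1 (-0.09) and Rere (0.06) did not pass it.

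**Figure D2:**
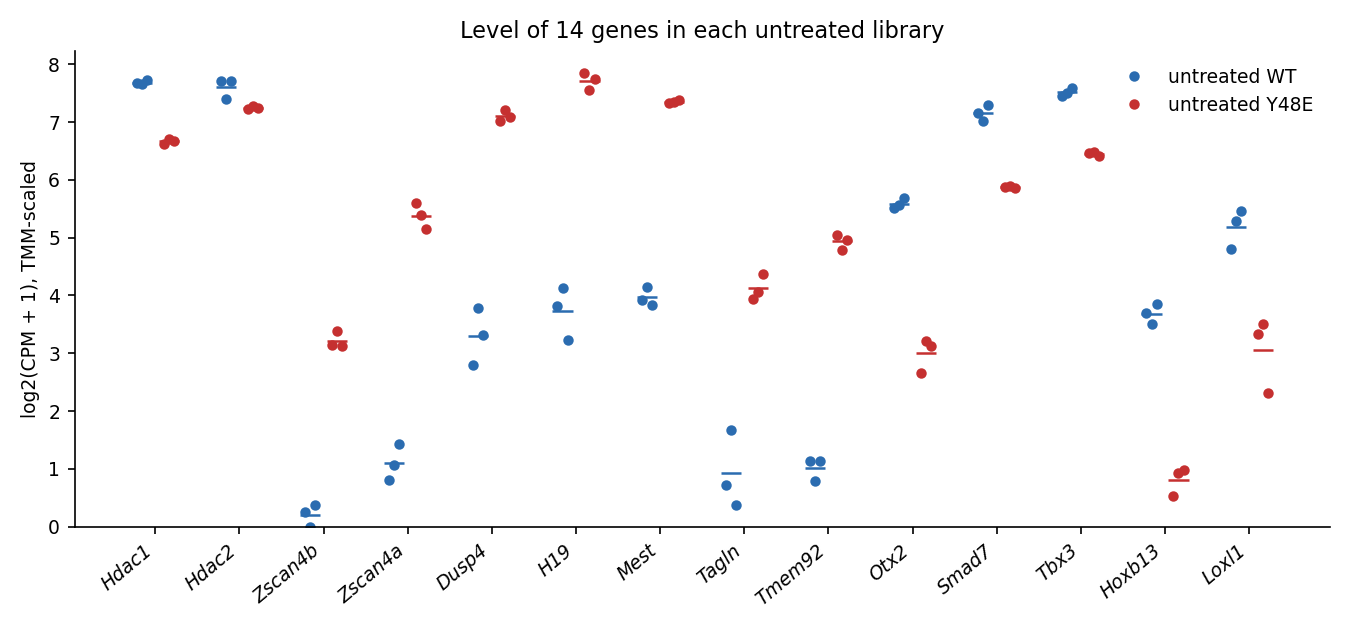
Level of 14 genes in the 3 untreated WT (blue) and 3 untreated Y48E (red) libraries, as log2 of TMM-scaled CPM plus 1; each point is a library and each short line the mean of its group. Points of the lines are apart for every gene shown, widely for Zscan4a, Dusp4, H19, Mest and Tmem92, and least for Hdac2, the gene that was not called.

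Genes of the 2-cell embryo had the highest share of DEGs among the gene lists used. Around the time of zygotic genome activation the mouse embryo transcribes the Zscan4 cluster, the Usp17l deubiquitinase family, Tcstv genes and other multicopy genes, and in ESC cultures they are known to be on in a small and changing fraction of cells. Of 21 such genes tested, 19 were higher in the Y48E line (90.5%), none was lower, and the median log2 fold change was 4.64, against -0.0042 over all tested genes. Zscan4a, a zinc finger protein tied to telomere maintenance in ESCs, rose from 0.744, 1.09 and 1.7 CPM in the WT line to 47.3, 40.9 and 34.7 CPM in the Y48E line (log2 fold change 5.12, SE 0.26, adjusted p = 5.31e-12). The lowest Y48E library was thus far above the highest WT library. Zscan4b was nearly silent in the WT line, at 0.186, 0 and 0.3 CPM, and stood at 7.81, 9.45 and 7.75 CPM in the Y48E line, at least 29.4-fold higher against a floor of 3 counts per library. Tcstv3, at 0 in all WT libraries, was at 1.43, 2.16 and 2.37 CPM, at least 7.01-fold higher, and Gm4027, a predicted gene of this class, went from 0, 0.0906 and 0.5 to 6.93, 6.95 and 6.78 CPM. The remaining members, Duxf3 and Tdpoz4, had log2 fold changes of 3.71 and 4.01 and were not called (adjusted p = 0.0153 and 0.103). Summed over the list, the level was 8.25 to 13.2 CPM in the WT libraries and 243 to 276 CPM in the Y48E libraries. In bulk RNA a larger number of cells with these genes on and more RNA per cell cannot be told apart. The members are near copies of one another: 75.4% of the 100-base words of Zscan4b occur in Zscan4e and 91.4% of those of Gm4027 in BB287469, so single members are uncertain where reads can be shared. With single libraries of either line left out the count was 18 or 19, and 17 of the 21 were above 2-fold by a test against that limit.

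RefSeq promoter entries (build GRCm38.p6, 250 bases before to 50 after the start) were at hand for 14 of the 21 genes. They were searched on the strand of the gene for the letters TATAAA, the core of the TATA box, which 7 of the 14 entries held (50%) against 13.6% of all 32851 entries. Members of the Zscan4 cluster are shown because 3 copies that rose together have closely related starts, and Usp17lc because it holds the same letters in an unrelated sequence. Capitals mark TATAAA.
Zscan4b, chr7:10905001-10905300, - strand: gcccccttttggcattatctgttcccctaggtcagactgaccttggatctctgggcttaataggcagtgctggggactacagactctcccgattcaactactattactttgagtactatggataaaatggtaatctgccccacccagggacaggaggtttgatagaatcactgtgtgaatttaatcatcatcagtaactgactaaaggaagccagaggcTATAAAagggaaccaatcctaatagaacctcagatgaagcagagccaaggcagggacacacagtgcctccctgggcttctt
Zscan4c, chr7:11005495-11005794, + strand: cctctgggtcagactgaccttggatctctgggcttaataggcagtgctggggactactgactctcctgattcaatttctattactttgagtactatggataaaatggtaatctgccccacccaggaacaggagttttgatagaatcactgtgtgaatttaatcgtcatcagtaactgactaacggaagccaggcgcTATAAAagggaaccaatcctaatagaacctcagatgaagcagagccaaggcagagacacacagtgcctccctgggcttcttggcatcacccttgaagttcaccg
Zscan4d, chr7:11166099-11166398, - strand: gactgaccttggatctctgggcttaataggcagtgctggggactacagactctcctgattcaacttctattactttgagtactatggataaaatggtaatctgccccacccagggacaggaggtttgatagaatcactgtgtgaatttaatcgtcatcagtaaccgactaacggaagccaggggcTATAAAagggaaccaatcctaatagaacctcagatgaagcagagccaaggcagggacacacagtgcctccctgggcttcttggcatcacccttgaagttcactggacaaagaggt
Usp17lc, chr7:103416446-103416745, + strand: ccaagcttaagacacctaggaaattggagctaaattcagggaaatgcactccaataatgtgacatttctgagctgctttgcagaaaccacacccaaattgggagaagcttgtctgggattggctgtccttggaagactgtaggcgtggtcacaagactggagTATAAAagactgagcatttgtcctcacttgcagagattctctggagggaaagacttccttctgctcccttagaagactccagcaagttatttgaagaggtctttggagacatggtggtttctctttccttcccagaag
Of the 20-base words of the Zscan4b entry, 40.9% recurred in that of Zscan4c and 59.8% in that of Zscan4d, whereas 0 recurred in that of Usp17lc. The log2 fold changes of these members were 5.62 for Zscan4b, 4.91 for Zscan4c, 4.85 for Zscan4d and 4.95 for Usp17lc. A match is a description of the sequence, and binding at these sites was not measured. The letters were counted anywhere in an entry. Related copies count more than once among the 7 of 14 entries, so their share and that of all entries were not compared by a test.

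Imprinted genes, which are normally transcribed from 1 parental copy, moved in both directions but mostly upwards. Of 42 tested, 11 were higher (26.2%) and 2 were lower, with a median log2 fold change of 0.46. H19, the maternally expressed non-coding RNA next to Igf2, rose from 13.1, 16.6 and 8.4 to 229, 187 and 213 CPM (log2 fold change 4.04, SE 0.18, adjusted p = 4.27e-13). No WT library came near the Y48E range, and the untreated E63R line was at 10.6, 11.2 and 6.98 CPM, like the WT line. Igf2 was hardly transcribed in either line, at mean levels of 0.303 and 0 CPM. Mest, a paternally expressed gene on chromosome 6, rose from 14.2, 16.8 and 13.2 to 159.6, 162 and 165 CPM (log2 fold change 3.46, SE 0.14, adjusted p = 2.30e-13). Copg2 overlaps Mest on the other strand and was higher by 1.28 on the log2 scale, and since 23.1% of Mest exon bases lie under exons of the opposite strand, reads of the pair may be mixed. Peg13, a non-coding RNA, was at 0 in the WT line and at 3.74, 3.42 and 3.77 CPM in the Y48E line, at least 12.8-fold higher. Ascl2, a transcription factor of the trophoblast, rose from 2.42, 5.62 and 2.1 to 16.7, 18.1 and 17.4 CPM. The 6 further higher members were Grb10 (1.8), Snrpn (1.64), Peg3 (1.57), Meg3 (1.39), Rian (1.3) and Nnat (1.04), of which Meg3 and Rian are neighbours in 1 maternally expressed cluster. In the other direction, Cdkn1c, a cyclin-dependent kinase inhibitor, fell from 37.2, 40.5 and 37.7 to 12.4, 14.5 and 13.4 CPM (log2 fold change -1.52, SE 0.16, adjusted p = 5.95e-07). The second lower gene, Sgce (-1.01), was not called without WT replicate 2 or Y48E replicate 1 (log2 fold change -0.94 to -0.89).

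On the X chromosome, 5 of 23 Rhox and Xlr genes were higher and 1 was lower. Xlr3a, Xlr3b, Xlr4a and Xlr5a belong to a cluster of lymphocyte-regulated multicopy genes. Xlr3a rose from 16.7, 24.5 and 23.3 to 86.7, 69.2 and 76.1 CPM (log2 fold change 1.85) and Xlr5a from 4.28, 4.08 and 3.1 to 20.9, 15.8 and 20.1 CPM (2.31). The E63R line was on the other side of the WT line, with 3.23, 1.36 and 5.49 CPM of Xlr3a and 0.462, 0.791 and 0 CPM of Xlr5a. Exons of Xlr5a share 54.9% of their 100-base words with Xlr5b and those of Xlr3a 20.6% with Xlr3b. Xlr, the lower gene, had few counts and lost its call without WT replicate 1 or Y48E replicate 2 or 3 (adjusted p = 0.0174 to 0.0181). Of 8 Y-linked genes tested, Kdm5d, a histone H3 demethylase, was at 4.19, 6.62 and 4.8 CPM in the WT line and 0.22, 0.569 and 1.18 CPM in the Y48E line (-2.95). Zfy1 was at 10.2, 13.9 and 14.3 CPM in the WT line and 4.4, 3.76 and 5.6 CPM in the Y48E line (-1.48). The other 6 were not called, including Ddx3y (-0.25) and Eif2s3y (0.08). Among them was Zfy2 (-2.61, adjusted p = 0.0493), whose mean level was 1.65 CPM in the WT line and 0.264 CPM in the Y48E line.

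The pluripotency network stayed on, at somewhat lower levels of several factors. Of 25 naive pluripotency genes 3 were higher and 1 lower among DEGs, and at the p limit alone 3 were higher and 9 lower, with a median log2 fold change of -0.21. Tbx3, a T-box factor of naive ESCs, fell from 174, 179.8 and 193 to 86.9, 88 and 84.2 CPM (log2 fold change -1.08, SE 0.13, adjusted p = 1.90e-06). Differences short of 2-fold passed the p limit for Tfcp2l1, at 631, 605 and 671 CPM in the WT line and 311, 338 and 329 CPM in the Y48E line (log2 fold change -0.96), Sox2, at 545, 507 and 548 CPM in the WT line and 315, 313 and 302 CPM in the Y48E line (-0.78), and Nanog, at 893, 870.4 and 909 CPM in the WT line and 649, 627 and 592 CPM in the Y48E line (-0.52). The groups of all 3 were apart, with the Y48E libraries below the WT libraries. Klf4 (-0.66), Prdm14 (-0.75), Nr5a2 (-0.75), L1td1 (-0.78) and Tdgf1 (-0.69) also passed the p limit. Pou5f1, which encodes the core factor Oct4, was at 1291, 1296 and 1178 CPM in the WT line and 1036, 1049 and 1114 CPM in the Y48E line (-0.24, adjusted p = 0.216), and Esrrb, another core factor, at 542, 488 and 528 CPM in the WT line and 548, 573 and 554 CPM in the Y48E line (0.10, adjusted p = 0.556). Neither passed. The higher members were Dppa2, Dppa3 and Dppa4. Dppa2 and Dppa4, which form a pair of chromatin proteins that act upstream of 2-cell stage genes, rose from 19.4, 13.6 and 23.5 to 43.9, 48.1 and 38.6 CPM (1.21) and from 31.7, 32.9 and 29.9 to 62.8, 67.1 and 66.7 CPM (1.06). Dppa3, a maternal factor that protects DNA methylation in the zygote, rose from 5.4, 6.25 and 5.0 to 15.9, 14.8 and 14.4 CPM (1.44) and lies on chromosome 6.

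Genes that mark the exit from the naive state did not move as 1 group. Of 17 formative and primed genes, 3 were higher and 2 lower. Otx2, a homeobox factor of the formative epiblast, fell from 44.6, 46.2 and 50.4 to 5.28, 8.31 and 7.75 CPM (log2 fold change -2.72, SE 0.26, adjusted p = 1.47e-07), whereas Pou3f1, which encodes the epiblast and neural factor Oct6, rose from 4.93, 2.81 and 5.7 to 13.1, 13.7 and 11.4 CPM (1.51) and Sox3 from 1.58, 3.26 and 1.1 to 8.36, 11.7 and 8.51 CPM (2.25). Igfbp3, a binding protein of insulin-like growth factors, was higher by 1.49. The second lower gene, Lef1 (-2.29), a WNT effector, lost its call without WT replicate 2 or 3 or Y48E replicate 1 or 3 (adjusted p = 0.0119 to 0.0239). Among neural genes, 3 of 20 were higher and none was lower. Pax6, a regulator of the neural plate and the eye, rose from 0.186, 2.54 and 0.6 to 9.68, 13.9 and 10.6 CPM (log2 fold change 3.33, SE 0.57, adjusted p = 1.93e-04) and Neurod1, a proneural factor, from 2.6, 4.17 and 3.3 to 13.4, 11.5 and 13.4 CPM (1.92). The neural markers that check the culture summed to 70.4 to 75.7 CPM in the WT line and 89.9 to 96.7 CPM in the Y48E line. Summed over the whole neural list the level went the other way, at 506 to 532 CPM in the WT line and 478 to 499 CPM in the Y48E line. Its most abundant member, Stmn2, had means of 346 and 255 CPM and was not called (log2 fold change -0.44, adjusted p = 0.0157).

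In the Nodal, mesendoderm and primitive endoderm lists, some of which share members, the DEGs were mostly lower. Nodal and Foxh1 are in both the Nodal and the mesendoderm list. Eomes and Hand1 are counted again among the lower trophoblast genes. Of 24 Nodal and TGF-beta pathway genes, 1 was higher and 3 were lower. Smad7, an inhibitor of the pathway, fell from 141, 129 and 157 to 58, 58.6 and 57.3 CPM (log2 fold change -1.3, SE 0.13, adjusted p = 1.78e-07). The ligand Nodal was at 81.5, 94.2 and 75.4 CPM in the WT line and 42.5, 37.3 and 40.7 CPM in the Y48E line (-1.06), a difference that was short of 2-fold without WT replicate 2 (log2 fold change -0.96). Foxh1, the DNA-binding partner of the Nodal-dependent SMADs, went the other way, from 26.7, 39.5 and 31.6 to 79.7, 73.7 and 70.4 CPM (1.19). Among 16 mesendoderm genes 1 was higher, Foxh1 again, and 4 were lower, Nodal among them. Eomes was at 15.8, 24.6 and 20.8 CPM in the WT line and 7.7, 6.95 and 7.0 CPM in the Y48E line (-1.5). Hand1 was at 5.58, 7.52 and 8.3 CPM in the WT line and 1.76, 1.94 and 1.4 CPM in the Y48E line (-2.06). Gsc (-2.2) lost its call without WT replicate 1, 2 or 3 or Y48E replicate 1, 2 or 3 (adjusted p = 0.0162 to 0.0452). Of 21 primitive endoderm genes 1 was higher and 3 were lower. The higher gene, Lrp2 (1.05), lost its call without WT replicate 1, 2 or 3 or Y48E replicate 2 or 3. Among genes of this lineage short of 2-fold, Lama1 (0.86) passed the p limit on the higher side. Gata6, which drives this lineage, fell from 11.9, 10.1 and 6.8 to 2.09, 1.71 and 0.969 CPM (log2 fold change -2.59, SE 0.41, adjusted p = 7.70e-05), and Sparc, a matrix protein of the parietal endoderm and of fibroblasts, from 427, 421 and 412 to 216, 203 and 203 CPM (-1.02). Gata4 was at 20.6, 19.1 and 24.8 CPM in the WT line and 8.03, 7.74 and 5.49 CPM in the Y48E line (-1.6) and did not pass without WT replicate 3 or Y48E replicate 3 (adjusted p = 0.0113 to 0.0165). Primitive endoderm markers as a whole, 8 tested with 2 lower, summed to 43.3 to 46.7 CPM in the WT line and 23.3 to 28.7 CPM in the Y48E line. Whether the Y48E cultures held fewer such cells was not tested.

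Trophoblast genes were split, with 4 of 22 higher and 4 lower. Tfap2c, which encodes a transcription factor shared by trophoblast and naive cells, fell from 176, 175 and 183 to 49.9, 62.9 and 65.7 CPM (log2 fold change -1.58, SE 0.14, adjusted p = 4.78e-08), and Esx1 from 30.8, 32.1 and 26.3 to 13.3, 12.3 and 15.3 CPM (-1.12), while Gata2, on chromosome 6, rose from 12, 18.1 and 9.9 to 29, 31.4 and 39 CPM (1.31). None of 17 keratin genes was called, where 5.57% of all tested genes were. Hox genes, the homeobox clusters that Polycomb holds silent in ESCs, were low in both lines and lower still in the Y48E line: 5 of 17 tested were lower, none was higher, and the summed level was 51.5 to 57.2 CPM in the WT line against 18.9 to 20.7 CPM. Hoxb13 fell from 11.9, 10.4 and 13.4 to 0.44, 0.911 and 0.969 CPM (log2 fold change -3.92, SE 0.50, adjusted p = 5.98e-06) and Hoxc10 from 5.86, 6.62 and 4.1 to 0, 0.569 and 0 CPM. Hoxc11, a neighbour of Hoxc10 that is among the 10 largest decreases though not a member of the list, was at 2.42, 4.08 and 7.1 CPM in the WT line and at 0 in the Y48E libraries, at least 13.7-fold lower. The count of called Hox genes was 3 without Y48E replicate 2 or 3 and 1 by the test against a 2-fold change. Hoxb4 (-3.77) lost its call without WT replicate 1 or Y48E replicate 2 or 3 (adjusted p = 0.0114 to 0.0165) and Hoxa10 (-4.98) without WT replicate 3 or Y48E replicate 1, 2 or 3 (adjusted p = 0.0123 to 0.0321). Germline genes were lower in 5 of 38 and higher in none. Smc1b, a cohesin subunit of meiosis, fell from 115, 109 and 139 to 41.2, 35.3 and 52.2 CPM (-1.49), and Hormad1 (-1.2), Sycp2 (-1.29) and Meiob (-1.16), also meiotic proteins, fell with it.

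**Figure D3:**
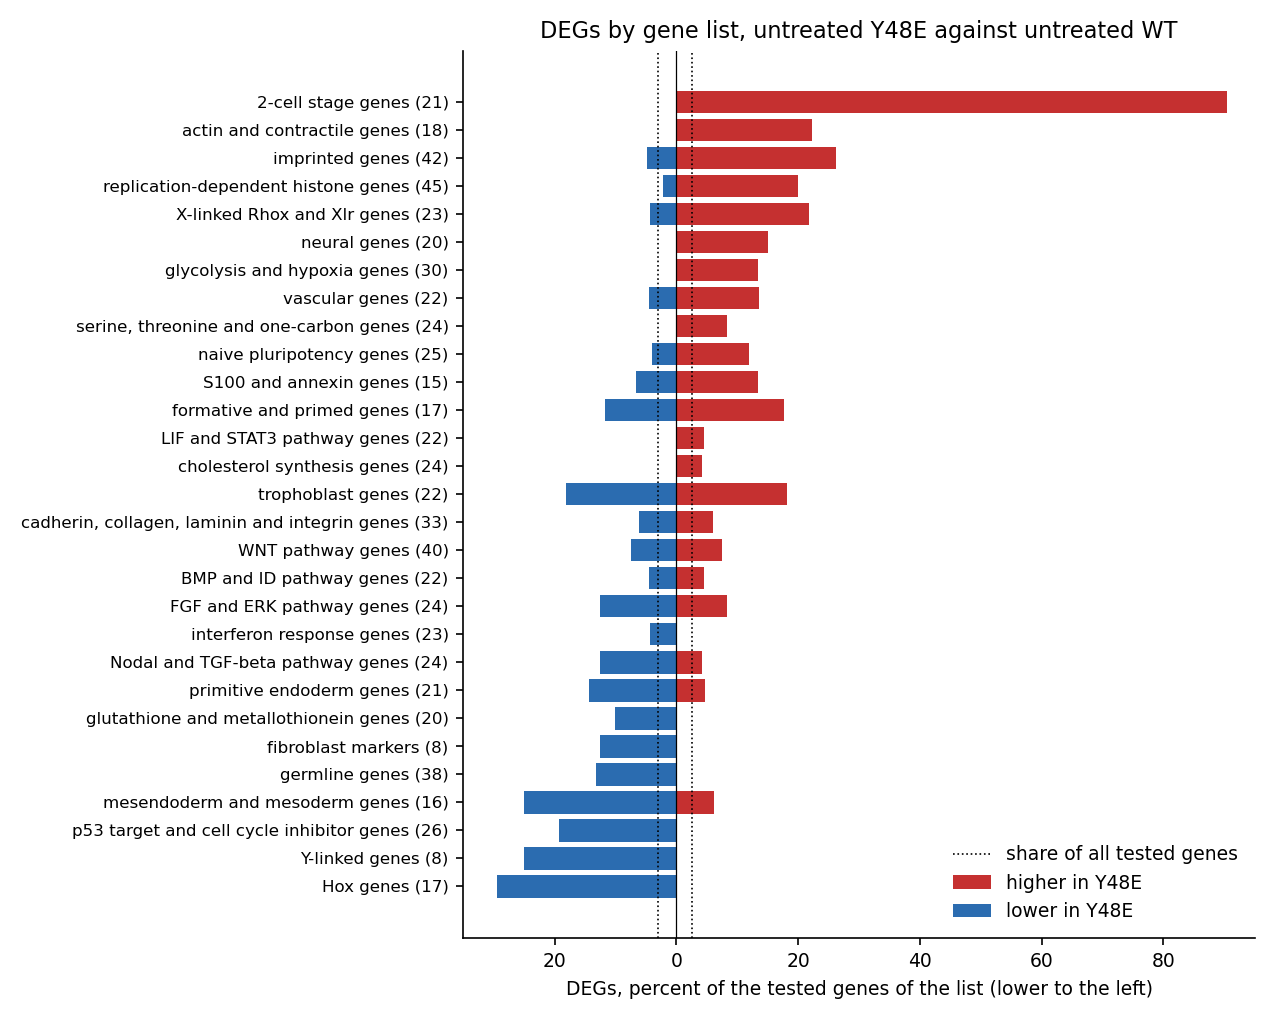
Share of the tested genes of each list, with the number tested in brackets, that were DEGs higher (red, to the right) or lower (blue, to the left) in the untreated Y48E line; the dotted lines mark the shares of all tested genes, 2.62% higher and 2.95% lower. The 2-cell stage genes stand out to the right, at 90.5%, the imprinted genes lie at 26.2%, and the Hox genes reach furthest to the left.

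In the FGF and ERK list, Dusp4, a phosphatase that switches off ERK, rose from 5.95, 12.7 and 8.9 to 129, 146 and 135 CPM (log2 fold change 3.89, SE 0.20, adjusted p = 9.89e-12). The untreated E63R line was between them at 27.5, 23.5 and 18.8 CPM. Dusp4 lies on chromosome 8. Another ERK phosphatase, Dusp9 on the X chromosome, fell from 494, 509.7 and 472 to 218, 231 and 208 CPM (-1.17), and the immediate early gene Fos from 95.1, 98.8 and 85.4 to 29.4, 21.6 and 25.8 CPM (log2 fold change -1.86, SE 0.17, adjusted p = 5.93e-08). Fgf15, a ligand, fell from 43.3, 50.8 and 45.7 to 13.9, 20.2 and 12.5 CPM (-1.59), with 25.7% of its exon bases under exons of the opposite strand. The receptor Fgfr1 was at 119.9, 123 and 123 CPM in the WT line and 57.1, 59.7 and 65 CPM in the Y48E line (-1.01) and came inside the 2-fold limit without WT replicate 2 or Y48E replicate 1 or 2 (log2 fold change -1.0 to -0.97). Fgfr1 lies on chromosome 6 or 8. Altogether 2 of 24 genes of this list were higher and 3 lower. The WNT list had 3 higher and 3 lower genes of 40 (15% called, against 5.57% of all tested genes). On the higher side Nkd1 and Axin2 lost their calls with single libraries left out, and Nkd2, a feedback inhibitor (1.6), did not. The lower side included the receptor Fzd6 (-1.43) and the secreted inhibitor Sfrp2 (-1.08). In the BMP list 1 of 22 genes was higher and 1 lower (9.09% called). Id3, a target of the pathway, rose from 4.37, 4.71 and 4.2 to 11.5, 8.77 and 9.48 CPM (1.16). Of the LIF and STAT3 pathway, which keeps ESCs naive in this medium, 1 of 22 genes was called. That is 4.55%, near the 5.57% of all tested genes.

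Genes of the p53 response and of cell cycle inhibition were lower in 5 of 26 cases and higher in none. Besides Cdkn1c these included Cdkn2b, which encodes the inhibitor p15, at 12.5, 9.7 and 8.2 CPM in the WT line and 2.42, 1.02 and 3.55 CPM in the Y48E line (-2.11), the kinase gene Plk2, at 151, 129 and 132 CPM in the WT line and 50.7, 48.2 and 53.3 CPM in the Y48E line (-1.43), and Perp, a membrane protein induced by p53, at 122, 110.2 and 94.4 CPM in the WT line and 47.1, 45.7 and 36.9 CPM in the Y48E line (-1.33). Of 30 glycolysis and hypoxia genes 4 were higher and 14 passed the p limit in that direction, and all 4 DEGs (Hk2, Ldhb, Eno2 and Ankrd37) lie on chromosome 6 or 8. Hk2, which encodes a hexokinase, was at 321, 304 and 350.0 CPM in the WT line and 683, 725 and 685 CPM in the Y48E line (1.1) and Ldhb, a lactate dehydrogenase, at 556, 563 and 496 CPM in the WT line and 1169, 1168 and 1177 CPM in the Y48E line (1.12). Eno2 (1.05) came inside the 2-fold limit without WT replicate 3 or Y48E replicate 3 (log2 fold change 0.98 to 1.0). In the serine and one-carbon list 2 of 24 genes were higher (8.33%, against 2.62% of all tested genes). Cbs, the entry enzyme of transsulfuration, rose from 14.4, 9.61 and 12.6 to 34.5, 30.9 and 32.2 CPM (1.41). Of 24 cholesterol synthesis genes 1 was a DEG, Lss (lanosterol synthase), which rose from 41.9, 40.1 and 39.6 to 86.6, 85.6 and 79.6 CPM (1.05), and 11 passed the p limit on the higher side, with a list median of 0.53. Antioxidant genes had 2 of 20 lower (10%, against 2.95% of all tested genes). Srxn1, a sulfiredoxin, was at 64.7, 65.8 and 61.3 CPM in the WT line and 21.2, 22.4 and 25 CPM in the Y48E line (-1.48). The glutathione transferase Gsta3 had a log2 fold change of -2.3.

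Contractile genes were higher in 4 of 18 and lower in none. Acta1, skeletal muscle actin, was near silence in the WT line at 0.093, 0.816 and 0.9 CPM and stood at 8.36, 6.15 and 11.8 CPM in the Y48E line (log2 fold change 3.85, SE 0.47, adjusted p = 3.44e-06). Tagln, an actin-binding protein of smooth muscle, rose from 0.651, 2.17 and 0.3 to 14.4, 15.7 and 19.7 CPM (3.95), although 67.9% of its exon bases lie under exons of the opposite strand, so that its reads and those of its neighbour may be mixed. The other members, Acta2 (2.42) and Myl9 (1.76), lost their calls, Acta2 without WT replicate 1 or 3 or Y48E replicate 2 (adjusted p = 0.0113 to 0.0215) and Myl9 without WT replicate 1 or 3 or Y48E replicate 2 or 3 (adjusted p = 0.023 to 0.0398). Thbs1, a matrix glycoprotein, rose from 1.49, 0.272 and 1.5 to 6.05, 6.15 and 6.78 CPM (2.54) and Cdh3, P-cadherin, from 26.4, 35.3 and 37.1 to 76.5, 83.9 and 83.2 CPM (1.3). Acta1 and Cdh3 lie on chromosome 6 or 8. Loxl1, a collagen cross-linking enzyme that was also the 1 fibroblast marker called, fell from 26.8, 38 and 43 to 9.13, 10.4 and 3.98 CPM (log2 fold change -2.2, SE 0.26, adjusted p = 1.67e-06). Replication-dependent histone genes, a list drawn up after their values had been seen, were higher in 9 of 45 and lower in 1, with a median log2 fold change of 1.64. Their mRNAs normally lack a poly(A) tail, and the summed level was 86.9 to 102.9 CPM in the WT line and 149.6 to 178.1 CPM in the Y48E line. Hist1h1a, a linker histone, was at 0 in the WT line and at 5.72, 5.01 and 3.66 CPM in the Y48E line, at least 16.9-fold higher, and Hist1h3c, a copy of histone H3, rose from 0.93, 0.544 and 0.7 to 7.48, 8.08 and 6.89 CPM (3.35) with 22.8% of its words shared with Hist1h3b.

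Among the most abundant lower DEGs, Eif2s2, a subunit of the initiation factor that carries the first tRNA to the ribosome, fell from 1241, 1133 and 1174 to 510.2, 533 and 612 CPM (-1.1), and the transcription regulator Tsc22d1 from 367, 353 and 374 to 188, 171 and 164 CPM (-1.06). On the higher side all 5 most abundant DEGs (Ldhb, Aars, Calr, Hk2 and Ifi30) lay on chromosome 6 or 8. Aars, alanyl-tRNA synthetase, was at 420.0, 445 and 409.7 CPM in the WT line and 864, 904 and 909.6 CPM in the Y48E line (1.07), and Calr, the chaperone calreticulin, was at 431, 435 and 444 CPM in the WT line and 889, 873 and 872 CPM in the Y48E line (1.01), a value that came just inside the 2-fold limit without WT replicate 1 or Y48E replicate 1 (log2 fold change 1.0).

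Chromosomes 6 and 8 were shifted upwards along most of their length. The median log2 fold change was 0.48 over the 942 tested genes of chromosome 6, 77.9% of which were above 0, and 0.32 over the 1027 of chromosome 8, 63.4% of which were above 0. On the other 18 chromosomes apart from Y the medians lay between -0.15 (chromosome 14) and 0. Chromosome 6 received 4.10% ± 0.0043 of the counts on genes in the WT line and 5.8% ± 0.024 in the Y48E line (SD, n = 3 each), and chromosome 8 received 5.81% ± 0.047 and 6.34% ± 0.047. The libraries of the lines did not overlap on either chromosome. Nor did they on chromosome 14, with a lower mean share in the Y48E line (3.24% in WT and 2.90% in Y48E). On the X chromosome they were apart as well, by less (2.78% in WT and 2.84% in Y48E). Shares of the other autosomes were not computed. In windows of 20 Mb the median on chromosome 6 was 0.05 in the first and between 0.30 and 0.73 in the other 7. Chromosome 8 was more mixed, with 6 windows at 0.19 to 0.55 and the last at -0.35, and it held 64 higher and 56 lower DEGs. Of the windows elsewhere, the 124 that held at least 20 tested genes lay between -0.45 and 0.20. The shift was there after OHT, with medians of 0.60 and 0.34, and in the untreated E63R line against the same WT libraries, with medians of 0.45 and 0.41.

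**Figure D4:**
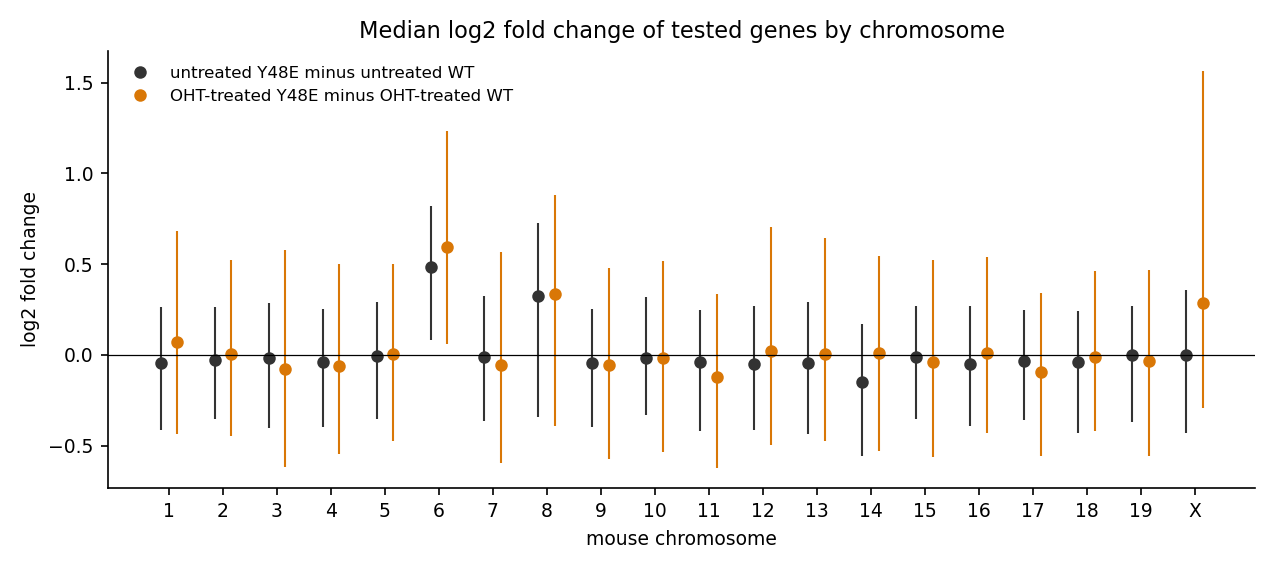
Median (points) and quartiles (lines) of the log2 fold change of tested genes on each mouse chromosome, for untreated Y48E minus untreated WT (dark) and for the OHT-treated lines (orange). Chromosomes 6 and 8 lie above the others in both comparisons, at 0.48 and 0.32 without OHT, and the X chromosome is at 0 without OHT and at 0.29 with it.

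Chromosomes 6 and 8 carried 146 of the 493 higher DEGs (29.6%) and 69 of the 554 lower ones (12.5%), against 10.5% of all tested genes. Of those 146, 94 had a log2 fold change between 1 and 1.5. On the remaining chromosomes 347 of 16822 genes were higher (2.06%) and 485 lower (2.88%), and a fit without the genes of both chromosomes gave 356 and 433. DNA was not measured, and the part of chromosome dosage in these values was not tested. None of the 2-cell stage, Xlr or replication-dependent histone genes called lies on these chromosomes. Nkd1, Sgce and Hoxa10, called genes named above without their place, lie on chromosome 6 or 8.

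A minority of the DEGs lay next to one another on a chromosome. Of the higher DEGs, 56 lay in 14 runs of at least 3 neighbours in the order of tested genes. Of the lower DEGs 32 lay in 8 runs, 5 of them on chromosomes 6 and 8. The longest was a lower run on chromosome 8 (25806555 to 26119224, GRCm38) with Star, Ash2l, Kcnu1, Hgsnat, Pomk, Fnta and Hook3, within a chromosome whose median was above 0. Ash2l, a core subunit of the histone H3K4 methyltransferase complexes, fell from 319.8, 321 and 334 to 159, 139.8 and 162 CPM (log2 fold change -1.08, SE 0.10, adjusted p = 4.18e-08), Fnta, a farnesyltransferase subunit, from 96.1, 94.6 and 87.7 to 34.8, 38.4 and 39.6 CPM (-1.3), and Hook3, a dynein adaptor, from 33.9, 30.3 and 34.4 to 15.1, 6.49 and 11.3 CPM (-1.58). In this run Star lost its call without Y48E replicate 3 (adjusted p = 0.0134), Kcnu1 without WT replicate 3 or Y48E replicate 1 or 3 (adjusted p = 0.0103 to 0.0171) and Pomk without WT replicate 1 or 3 or Y48E replicate 1 or 3 (adjusted p = 0.0173 to 0.0335). In the E63R line Ash2l was at 449, 422 and 509 CPM, above the WT level.

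The next in length were runs of 6 higher genes. The first, on chromosome 11 (94756976 to 94846092), held Tmem92, which rose from 1.21, 0.725 and 1.2 to 32.2, 26.6 and 30.2 CPM (log2 fold change 4.82, SE 0.29, adjusted p = 1.07e-10), the expressed sequence AA623943, from 0.372, 0 and 0.5 to 11, 12.8 and 15.8 CPM, and predicted genes such as Gm11543, from 0.372, 0.634 and 1.3 to 16.3, 20.2 and 17.7 CPM. The second, on chromosome 12 (87795512 to 87919857), held predicted multicopy genes next to the 2-cell member BB287469, with Gm2016 at 1.02, 0.634 and 0.5 CPM in the WT line and 22.7, 18.2 and 22.1 CPM in the Y48E line and Gm2035 at 0 in the WT line and 9.79, 9.34 and 7.97 CPM in the Y48E line, at least 31.8-fold higher. In the chromosome 11 run Gm11545 lost its call without WT replicate 1 or 2 (adjusted p = 0.0108 to 0.0168) and Gm11544 without WT replicate 1, 2 or 3 or Y48E replicate 1, 2 or 3 (adjusted p = 0.0112 to 0.0323). The Zscan4 cluster on chromosome 7 (10794242 to 11176743) formed another run of 6, and 4 Xlr genes formed one on the X chromosome (73074345 to 73292976). Elsewhere a run on chromosome 6 (47453776 to 47813430) held Ezh2, the catalytic subunit of Polycomb repressive complex 2, and Pdia4, a chaperone of the endoplasmic reticulum, with log2 fold changes of the 4 genes between 1.13 and 1.38.

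Some of the DEGs had at most 3 counts in every library of either the WT or the Y48E line. Such genes are called silent below, which is a limit of detection and does not show that a gene was off. There were 60 higher genes with no WT library above 3 counts, whose levels were at least 3.61-fold to at least 56.9-fold higher in the Y48E line (median bound 5.77), and 38 lower genes with no Y48E library above 3 counts, at least 3.09-fold to at least 20.2-fold lower (median bound 5.04). Besides genes already named, the first set held Calhm3, a subunit of a taste cell ion channel, at 3.52, 3.87 and 3.66 CPM (at least 13-fold higher), Sp110, a nuclear body protein, at 3.52, 1.82 and 1.83 CPM (at least 8.43-fold), Abcb5, a membrane transporter, at 2.09, 1.37 and 1.29 CPM (at least 5.58-fold), and Jazf1, a zinc finger protein encoded on chromosome 6, at 1.21, 3.19 and 1.4 CPM (at least 6.81-fold). All 3 WT libraries were at 0 for these genes. The second set held Slc7a14, an amino acid transporter, at 1.49, 3.9 and 2.2 CPM in the WT line (at least 7.63-fold lower), Slc5a1, the intestinal glucose transporter, at 2.23, 1.72 and 0.8 CPM (at least 4.78-fold), Tph2, which makes serotonin in neurons, at 2.23, 0.997 and 0.7 CPM (at least 3.95-fold), and Cd200, an immune inhibitory ligand, at 1.4, 0.997 and 1.1 CPM (at least 3.51-fold). Hopxos, a non-coding RNA next to the homeobox gene Hopx, was low but not silent in the Y48E line, at 16.6, 18.7 and 9.7 CPM in the WT line and 0.33, 0.455 and 0 CPM in the Y48E line (log2 fold change -5.79, SE 0.59, adjusted p = 2.92e-07), with 24.8% of its exon bases under exons of the opposite strand.

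The silent genes of each set were then counted in the OHT-treated lines, which share no library with the untreated ones. Of the 60 genes silent in untreated WT cells, 39 were silent in OHT-treated WT cells too. Of the 38 silent in untreated Y48E cells, 2 were still silent in OHT-treated Y48E cells and 36 were not. Each set was chosen by low counts in the untreated libraries of that line, and the share over all silent genes was not computed. Genes with a count numbered 20521 to 20895 in untreated and 23110 to 23576 in OHT-treated Y48E libraries. In the WT libraries they numbered 21027 to 21396 and 21173 to 21409. Slc7a14 is an example of the second set, at 4.22, 6.98 and 4.68 CPM in the OHT-treated Y48E libraries and 3.08, 5.9 and 4.59 CPM in the OHT-treated WT libraries, and Hoxc11 is 1 of the 2 exceptions, at 0, 0 and 0 CPM in the OHT-treated Y48E libraries.

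The untreated difference was then set beside that between OHT-treated Y48E and OHT-treated WT cells, in which the endogenous genes had been targeted for deletion. That comparison gave 2058 higher (11%) and 1358 lower (7.23%) genes. Of the 493 genes higher in untreated Y48E cells, 354 (71.8%) were higher after OHT as well, which is 17.2% of the 2058, and 8 were lower. Of the 554 lower genes, 236 (42.6%) were lower again, which is 17.4% of the 1358, and 34 were higher. The sign was kept by 449 of the higher and 425 of the lower genes. All but 1 of the 2-cell stage genes tested were higher after OHT (20 of 21), with Zscan4a at 19.7, 21.1 and 20.4 CPM in the Y48E line and 0.77, 0.726 and 0.265 CPM in the WT line. H19 was at 1056, 1022 and 1059 CPM against 18.6, 16.8 and 15.3 CPM, and its log2 fold change was 5.95 after OHT and 4.04 before. Tbx3, Otx2 and Tfap2c had log2 fold changes of -2.56, -3.6 and -1.81 after OHT, in the same direction as before it. Pax6 and Neurod1, higher in untreated Y48E cells, were at 0.36 and 0.22 and were not called. Of the naive pluripotency list 16 of 25 genes were lower after OHT, with Pou5f1 at a log2 fold change of -1.7 and Esrrb at -1.81, neither of which was called in untreated cells.

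**Figure D5:**
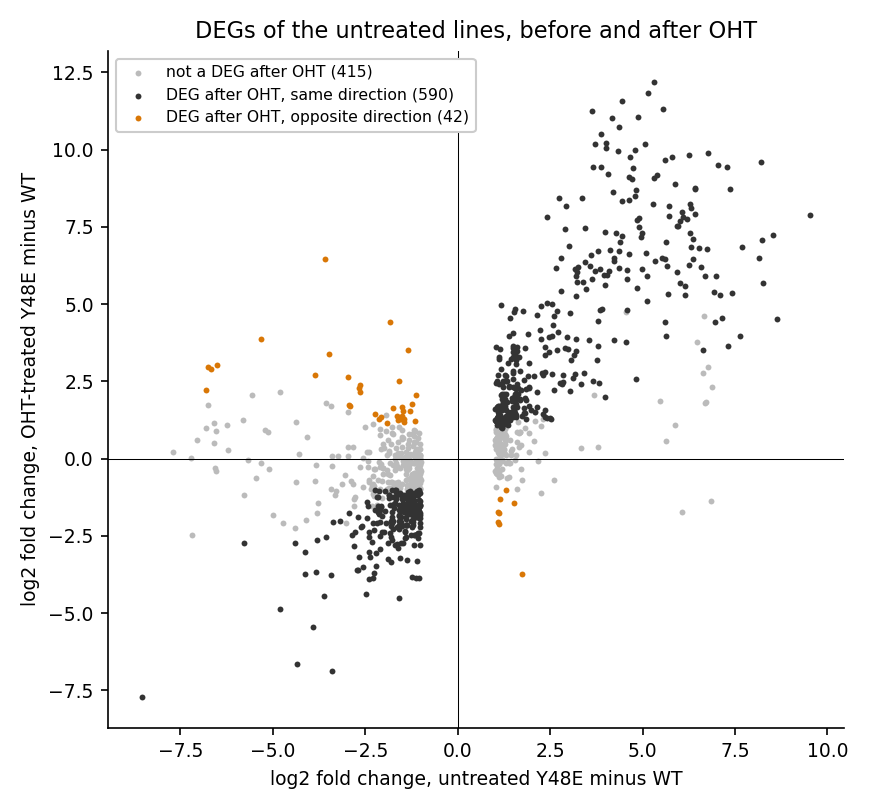
Log2 fold change (Y48E minus WT) of the 1047 DEGs of the untreated lines, on the x axis, against that of the same genes between the OHT-treated lines, on the y axis; each point is a gene. Of these, 590 were DEGs in the same direction after OHT (dark), 42 in the opposite direction (orange) and 415 were not called (grey), most of the opposite ones being lower without OHT and higher with it.

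When the difference between both comparisons was tested as an interaction over all 18791 genes, 1619 passed an adjusted p of 0.01 with a difference beyond 1 on the log2 scale. The 42 genes called in opposite directions were chosen by calls on the same values, which sets the size of their differences. They are described without a test. Ldhb was the most abundant of the named higher genes before OHT, and afterwards it stood at 107, 109 and 99.9 CPM in the Y48E line and 379, 399 and 291 CPM in the WT line. Cdkn1c went from the lower to the higher side, at 97.6, 93.3 and 88.3 against 44.9, 31.1 and 31.9 CPM after OHT.

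Finally, the untreated Y48E line was set beside the untreated E63R line, which shares the Y48E libraries with the main comparison, so that no overlap between them is counted. Between these lines 80 genes were higher (0.426%) and 103 lower (0.548%) in Y48E, 0.974% in all, and without E63R replicate 3 there were 121 higher and 127 lower. A fit of only the compared libraries gave 17 and 30. A fit without the genes of chromosomes 6 and 8 gave 62 and 36. H19 (log2 fold change 4.44, adjusted p = 1.24e-13), Xlr3a (4.52), Xlr5a (5.45), Dusp4 (2.55) and Otx2 (2.48) were higher in the Y48E line, and Cdkn1c (-2.06), Ash2l (-1.58), Fnta (-1.93) and Fgfr1 (-1.77) were lower. The E63R line had 623 higher (3.32%) and 814 lower (4.33%) genes against the WT line (7.65% in all). Otx2, low in both mutant lines against the WT line, was at 1.57, 0.565 and 1.6 CPM in the E63R line. Zscan4a was at 17, 19.8 and 24.4 CPM there (1.01, adjusted p = 0.00218), above the WT line, and Mest at 245, 219 and 269 CPM (-0.59, adjusted p = 0.00576). Of the 60 genes silent in untreated WT cells none was silent in the E63R line, and of the 38 silent in untreated Y48E cells 14 were silent there. Both sets were chosen by low counts in the untreated WT or Y48E libraries. The share over all silent genes was not computed, so these counts do not show which lines are alike.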

How the data were processed

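The authors mapped reads to mm10 and deposited raw read counts per gene symbol, 1 table per library, per the file headers and labels without normalization. The submitters' processing notes name HISAT2 2.1.0, SAMtools 1.9 and HTSeq. The annotation and the use of strand are not given in the sources used here. Counts were filtered with filterByExpr by group, which left 18791 genes, scaled with TMM factors and fitted together for all 18 libraries by quasi-likelihood, each group with its own mean (edgeR 4.0.16, R 4.3.3). Benjamini-Hochberg adjustment ran over all tested genes, and DEGs were called below 0.01 with a log2 fold change past 1 in size. Positions, exon overlaps and copies were taken from GENCODE M21, which held 98.4% of the tested symbols.

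The members, gene lists and tests were chosen with earlier results of these data known. Genes were named by rule: Hdac1 and Hdac2, the 10 largest increases and 10 largest decreases and the 5 most abundant DEGs in each direction, up to 4 DEGs per list and direction, members of the complex, naive and Y-linked lists, and the 3 longest runs, with groups apart and a mean of at least 1 CPM. Igf2, the smaller imprinted changes and the genes of shorter runs were named after their values were seen. A gene that the rule names is not reported here. Procedures were tested on simulated data. Alternatives were relative log expression factors, other filters and limits, glmTreat against a 2-fold change, DESeq2 1.42.0, a replicate block, a fit of only the compared libraries and each library left out.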

Additional observations from a re-analysis of the deposited data

Results flagged for a closer look

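The named genes below were called in opposite directions in the untreated and the OHT-treated lines, and the difference of the log2 fold changes (Y48E minus WT, OHT-treated minus untreated) is given for each. Since the opposite calls chose these genes, the differences are a description and were not tested on other samples. Ldhb, a lactate dehydrogenase, was at 1.12 without OHT and -1.76 with it (difference -2.88, SE 0.20). Ifi30, a lysosomal thiol reductase, was at 1.31 without OHT and -1.01 with it (difference -2.32, SE 0.20). Both lie on chromosome 6 or 8 and were higher without OHT. The other 7 were lower without OHT and higher with it. Cdkn1c, an imprinted cell cycle inhibitor, was at -1.52 without OHT and 1.37 with it (difference 2.89, SE 0.22). Esx1, a placental homeobox factor, was at -1.12 without OHT and 2.05 with it (difference 3.17, SE 0.27). Hand1, a factor of trophoblast and mesoderm, was at -2.06 without OHT and 1.34 with it (difference 3.4, SE 0.39). Sycp2, a protein of the synaptonemal complex, was at -1.29 without OHT and 1.55 with it (difference 2.84, SE 0.31). Tek, an angiopoietin receptor, was at -1.15 without OHT and 1.22 with it (difference 2.37, SE 0.36), and its untreated call was lost without WT replicate 1 or Y48E replicate 1 or 2 (adjusted p = 0.0163 to 0.0254). Xlr, an X-linked lymphocyte-regulated gene, was at -3.49 without OHT and 3.39 with it (difference 6.88, SE 1.01), and its untreated call was lost without WT replicate 1 or Y48E replicate 2 or 3 (adjusted p = 0.0174 to 0.0181). Cyp2c55, a cytochrome P450, was at -6.67 without OHT and 2.92 with it (difference 9.59, SE 1.49), with 0 counts in all 3 untreated Y48E libraries, so that its untreated value and the difference depend on the prior count of the fit. Per library, Hand1 was at 5.58, 7.52 and 8.3 CPM in untreated WT, 1.76, 1.94 and 1.4 CPM in untreated Y48E, 8.38, 7.35 and 3.8 CPM in OHT-treated WT and 16.4, 16.1 and 16.8 CPM in OHT-treated Y48E cells. The loss of the endogenous enzymes and the drug cannot be told apart here.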

How the results depend on the processing

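Across the alternatives no DEG of the untreated Y48E and WT lines took the opposite sign as a DEG. The 493 higher and 554 lower genes became 592 and 662 with DESeq2, 589 and 639 with no filter on low counts, 477 and 631 in a fit of only the libraries compared, and 389 to 427 and 457 to 485 with 1 of the 6 libraries left out. They became 113 and 87 when glmTreat asked for a change above 2-fold, and 1207 and 1078 with no fold limit. Same-numbered WT and Y48E libraries showed no shared deviation (correlations -0.014, 0.0066 and -0.0033, and not every library correlated best with its own number). With 3 libraries per group this cannot exclude pairing or a shared batch. A fit with a replicate block gave 463 and 543, with 989 of the 1047 DEGs kept. Fits without E63R replicate 3 (631 and 713) and without the genes of chromosomes 6 and 8 (356 and 433) were chosen after seeing the data. The 354 and 236 DEGs called again after OHT became 102 and 43 with glmTreat, 729 and 598 with no fold limit, and 277 to 340 and 206 to 231 with 1 library left out. Against untreated E63R, 80 higher and 103 lower genes became 17 and 30 in a fit of only those libraries, 19 and 19 with glmTreat, 138 and 156 at an adjusted p of 0.05, 159 and 188 with no fold limit, and 63 to 121 and 85 to 131 with 1 library left out, and the lower genes numbered 36 without chromosomes 6 and 8. The median of chromosome 6 was 0.22 with no filter, 0.23 with DESeq2, 0.50 at a mean of at least 1 CPM and 0.45 to 0.50 with 1 library left out, and that of chromosome 8 was 0.0031, 0.0030 and, with 1 library left out, 0.30 to 0.36. The first 2 settings add genes with few or no counts, and the cause of the other moves was not tested. Of 140 named genes that were called, 100 lost the call under glmTreat, 35 under another alternative, 34 of these with 1 library left out, and 0 reversed. At 9117826 to 11402694 counts per library, a gene with no count in a library may be present at up to 0.263 to 0.329 CPM.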
